A study of Mus musculus with 16 samples.

Results

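The enzymes that assemble glycerolipids and triglyceride were followed across 4 groups of mouse liver. The group comprised 10 listed genes (Gpam, Gpat3, Gpat4, Agpat2, Lpin1, Lpin2, Lpin3, Dgat1, Dgat2 and Mogat1), and all 10 were measured among 18820 genes, each by 1 probe set that carries a single gene symbol. Liver RNA was hybridised to whole-transcript arrays, 4 arrays each from fasted vanin-1 knockout (KO), fasted wild type (WT), fed KO and fed WT mice. Vnn1 encodes vanin-1, a pantetheinase, which releases cysteamine and pantothenate from pantetheine. All mice were males of the C57Bl/6J background aged 14 to 16 weeks, housed singly on chow. They were fasted for 24 h or had normal access to food over the same 24 h. The knockout is described in the labels only as vanin-1 null, without a tissue restriction or an allele name. No label states that the arrays of a group stem from different animals, and p-values measure the spread between arrays, which may be technical.

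Triglyceride is built by adding fatty acyl chains to glycerol 3-phosphate one after another. Glycerol-3-phosphate acyltransferases (Gpam on mitochondria, Gpat3 and Gpat4 on the endoplasmic reticulum) make lysophosphatidic acid, and Agpat2 turns it into phosphatidic acid. The lipins remove the phosphate to give diacylglycerol, which Mogat1 can also make from monoacylglycerol, and Dgat1 and Dgat2 add the last acyl chain. Fasting brings fatty acids from adipose tissue to the liver, where they are oxidised, re-esterified or exported. In the fed liver insulin raises the synthesis of fatty acids, in part through the transcription factor encoded by Srebf1.

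Values are log2 intensities after RMA, a method that corrects background, normalises and summarises probe sets, and a group level is a mean ± SD of 4 arrays. The level of 1 probe set is not compared with that of another. Vnn1 lay between 3.67 and 4.26 on fasted KO arrays, against 9.93 to 11.47 on fasted WT arrays. It lay between 3.80 and 4.06 on fed KO arrays, against 6.71 to 10.34 on fed WT arrays, so every array carried the Vnn1 level of its genotype label. Mean levels of 8 hepatocyte markers lay between 13.12 and 13.25 over the 16 arrays. Of 7 measured adipocyte markers 5, Adipoq, Plin1, Lep, Retn and Cidea, lay under the highest array median of 5.83, as did 4 of 5 cholangiocyte markers. Mean levels of 5 exocrine pancreas markers stood at 8.79 on array fasted WT 4, against 4.13 to 4.32 on the other 15. On that array the adipocyte markers Adipoq, Plin1 and Retn read 4.65, 5.62 and 5.07, against 3.33 to 3.61, 4.71 to 4.80 and 4.10 to 4.41 on the other fasted WT arrays. Cidea, at 3.54, also lay above those arrays. Lep, at 4.07, lay within their range, and Lpl and Car3, at 7.04 and 10.88, lay under it. Adipoq and Retn also read 4.16 and 4.98 on fed WT 2 and 4.01 and 4.85 on fed KO 2. The mean of the 7 adipocyte markers was 5.84 on fasted WT 4, 5.98 on fed WT 2, 5.93 on fed KO 2 and 5.89 on fed WT 4. The mean of 8 acute phase entries, in which Saa2 also stood for Saa1, was highest on fed KO 4, at 11.40, and ranged from 6.997 to 9.61 elsewhere. Without fasted WT 4 and fed KO 4 together, 5 of the 10 genes still passed on fasting in KO and 4 in WT liver. Of all 18820 genes, 1611 and 990 passed there.

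Fasting raised Gpat3, Gpat4, Lpin2 and Dgat1 in both genotypes, while Dgat2 was lower on every fasted array and passed the test in KO liver. In fasted KO liver 4 of 10 genes rose (Gpat3, Gpat4, Lpin2 and Dgat1) and 1 fell (Dgat2), with a limma adjusted p below 0.05 as the threshold. In fasted WT liver the same 4 genes rose and none of the 10 passed the threshold as lower. Of all genes tested, 9.42% passed in KO liver, 4.53% higher and 4.89% lower, and 7.61% passed in WT liver, 3.34% higher and 4.27% lower. The median log2 difference of the 10 genes was 0.36 in KO and 0.35 in WT liver, beside 0.02 and 0.01 over all genes. The arrays of the fasted and fed groups did not overlap for 6 of 10 genes in KO and 5 of 10 in WT liver, where 17.0% and 12.4% of all genes were so separated. The array names carry a position code of a letter and a number, read here as plate row and column, and each group had arrays in columns 5 and 7. Rows A and B held fasted WT, C and D fasted KO, E and F fed WT and G and H fed KO arrays. An effect of row can therefore not be told apart from feeding state or genotype. Within columns 5 and 7 the log2 difference of Gpat3 was 2.09 and 1.84 in KO liver and 1.37 and 1.66 in WT liver, and that of Lpin2 was 0.97 and 0.91 in KO and 0.47 and 1.07 in WT liver. Dgat1 differed by 0.34 and 0.70 in KO and 0.41 and 0.83 in WT liver, Gpat4 by 0.37 and 0.48 in KO and 0.33 and 0.34 in WT liver, and Dgat2 by -0.58 and -0.36 in KO and -0.43 and -0.18 in WT liver. The direction within a column was fixed in advance for these genes, since their fasted and fed arrays did not overlap in either genotype. It therefore says nothing about plate position. In whole liver RNA, fewer cells of a type and less RNA per cell cannot be told apart. Markers of other liver cells also moved: 2 of 8 stellate cell markers (Col3a1 and Lrat) were lower on fasting in both genotypes. Of 8 macrophage markers 1 (Adgre1) was lower in fasted WT liver, and of 7 adipocyte markers 1 (Car3, which liver also expresses) was lower on fasting in both genotypes. The mean macrophage level ranged from 7.72 to 8.52 in fasted KO, 7.97 to 8.54 in fasted WT, 8.14 to 8.47 in fed KO and 8.29 to 9.05 in fed WT liver, with the top value on fed WT 4. That array also had the lowest fed WT values of Gpat3, Lpin2 and Vnn1, and without it the WT fasting differences of Gpat3 and Lpin2 were 1.37 and 0.66 (limma adjusted p = 7.40e-05 and 0.00252). The range of the mean stellate level was 7.49 to 7.59 in fasted KO, 7.45 to 7.84 in fasted WT, 7.77 to 8.04 in fed KO and 7.75 to 8.06 in fed WT liver. The part of these cells in the results was not tested.

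**Figure D1:**
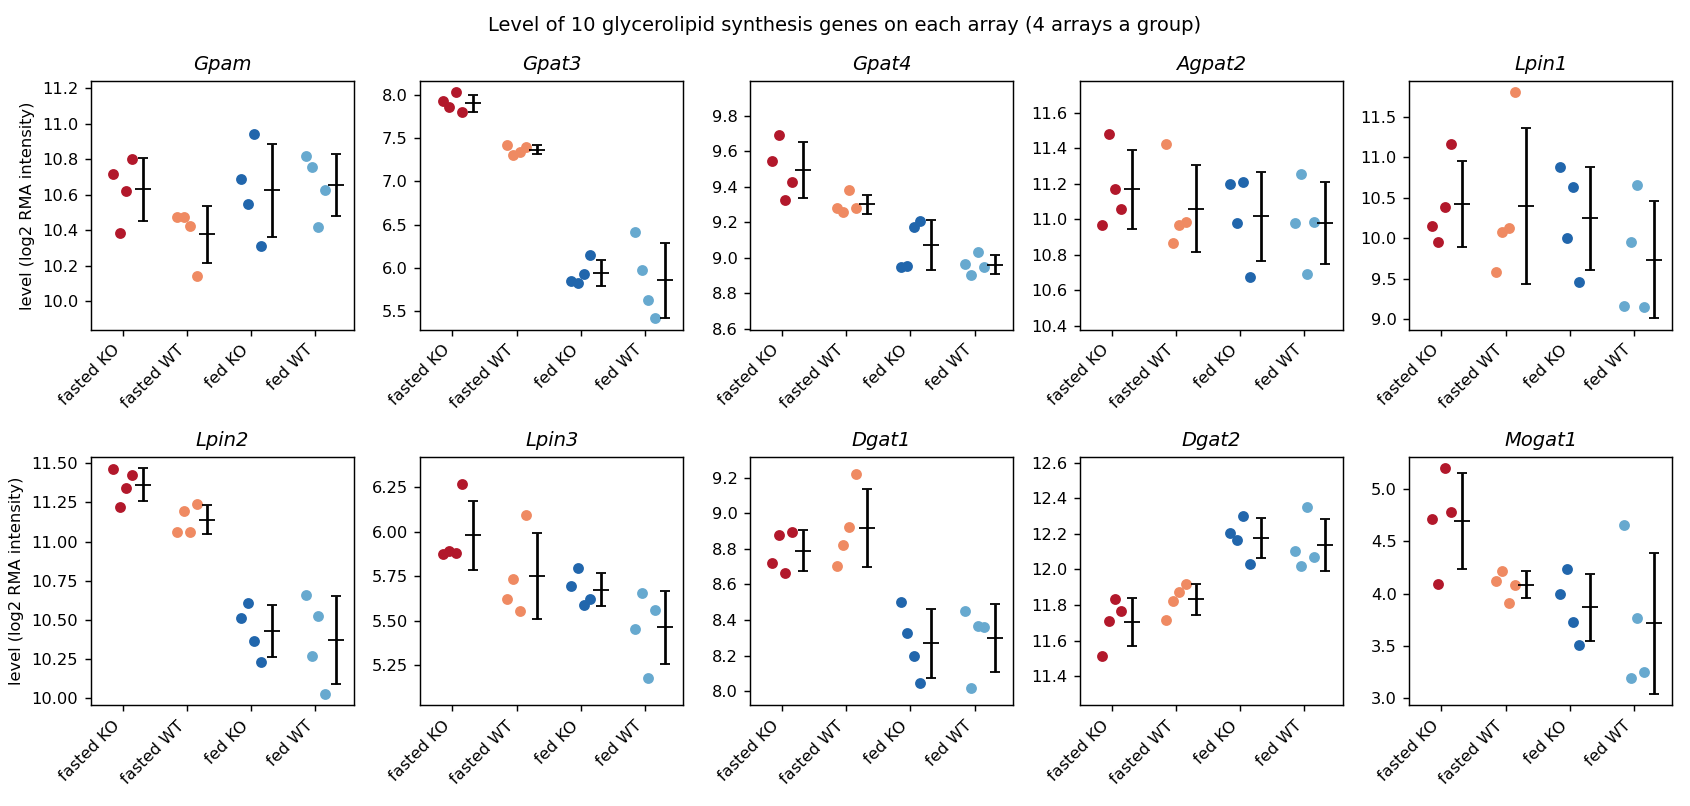
Levels of the 10 genes (vertical axis, log2 RMA intensity, a scale of its own in each panel) on each of 16 arrays, by group. Coloured points are arrays and black bars are the mean ± SD of 4 arrays. The 8 fasted arrays stand above the 8 fed arrays for Gpat3 (7.31 to 8.03 against 5.41 to 6.41) and under them for Dgat2 (11.52 to 11.92 against 12.02 to 12.35).

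Gpat3, an acyltransferase of the first step, showed the largest fasting response of the 10 genes. Its level was 7.93, 7.86, 8.03 and 7.80 on fasted KO arrays, against 5.85, 5.83, 5.93 and 6.15 on fed KO arrays. On fasted WT arrays it was 7.43, 7.31, 7.34 and 7.40, against 6.41, 5.97, 5.62 and 5.41 on fed WT arrays. All 8 fasted arrays lay above all 8 fed arrays, and fed WT arrays were the most spread. The rise was 3.91-fold in KO liver (log2 difference 1.97, SE 0.15, limma adjusted p = 1.10e-06) and 2.86-fold in WT liver (1.52, SE 0.15, limma adjusted p = 3.05e-05). Fed levels of Gpat3 lay near the highest array median of 5.83, with fed KO 2, fed WT 3 and fed WT 4 under it, where arrays resolve a level less well. With any single array left out the log2 rise stayed between 1.92 and 2.04 in KO and between 1.37 and 1.70 in WT liver.

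Gpat4 encodes the closely related acyltransferase of the endoplasmic reticulum and rose by a smaller fold. It read 9.54, 9.69, 9.33 and 9.42 on fasted KO arrays, against 8.95, 8.95, 9.17 and 9.21 on fed KO arrays. WT arrays showed 9.28, 9.26, 9.38 and 9.28 after fasting, against 8.96, 8.90, 9.03 and 8.95 on fed WT arrays. The groups did not overlap in either genotype, although fed KO 3 and 4 came near the fasted values. Gpat4 rose 1.34-fold in fasted KO liver (log2 difference 0.42, SE 0.09, limma adjusted p = 0.00403) and 1.265-fold in fasted WT liver (0.34, SE 0.09, limma adjusted p = 0.0215). The WT call ended without fasted WT 3 (limma adjusted p = 0.062), without fed WT 2 (0.0555) or without fed WT 4 (0.051).

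Gpam, the mitochondrial enzyme of the same step and known as a target of the Srebf1 product, did not pass the test. It ranged from 10.39 to 10.80 on fasted KO, 10.14 to 10.48 on fasted WT, 10.31 to 10.94 on fed KO and 10.42 to 10.82 on fed WT arrays. The difference was 0.01 on the log2 scale in KO liver (95% interval -0.27 to 0.28, limma adjusted p = 0.987) and -0.28 in WT liver (-0.55 to -0.002, limma adjusted p = 0.233). Agpat2, the enzyme of the second step whose loss causes lipodystrophy in humans, lay between 10.68 and 11.48 on all 16 arrays. Its fasting difference was 0.15 in KO (95% interval -0.17 to 0.48) and 0.08 in WT liver (-0.24 to 0.41), with limma adjusted p of 0.615 and 0.812.

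Of the lipins, phosphatases that yield diacylglycerol, Lpin2 passed in both genotypes and Lpin1 and Lpin3 in neither, and their responses were not tested against each other. Lpin2 read 11.47, 11.22, 11.34 and 11.42 on fasted KO arrays, against 10.51, 10.61, 10.37 and 10.23 on fed KO arrays. In WT liver it read 11.06, 11.19, 11.06 and 11.24 on fasted arrays, against 10.66, 10.27, 10.53 and 10.02 on fed WT arrays. Every fasted array lay above every fed array. Lpin2 rose 1.91-fold in fasted KO (log2 difference 0.94, SE 0.12, limma adjusted p = 9.90e-05) and 1.71-fold in fasted WT liver (0.77, SE 0.12, limma adjusted p = 9.13e-04).

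Lpin1, which also acts as a transcriptional coactivator, was the most variable of the 10 genes within groups. It read 10.15, 9.96, 10.39 and 11.17 on fasted KO arrays, against 10.88, 10.003, 10.63 and 9.47 on fed KO arrays. On fasted WT arrays it read 9.58, 10.08, 10.13 and 11.81, against 9.16, 9.96, 10.66 and 9.15 on fed WT arrays. The groups overlapped in both genotypes. The highest of all 16 values was on fasted WT 4, the array with high pancreatic markers and with raised Adipoq, Plin1 and Retn. The fasting difference was 0.17 in KO (95% interval -0.76 to 1.11, limma adjusted p = 0.871) and 0.67 in WT liver (-0.27 to 1.60, limma adjusted p = 0.428). Without fed KO 4 the KO difference of Lpin1 was -0.09, and without fasted WT 4 the WT difference was 0.20. The pooled SD of Lpin1 within groups was 0.73 against a median of 0.15 over all genes, and 0.468% of genes had a larger one.

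Lpin3, whose group levels lay near or under the highest array median of 5.83, ranged from 5.87 to 6.27 in fasted KO, 5.55 to 6.10 in fasted WT, 5.59 to 5.80 in fed KO and 5.18 to 5.66 in fed WT liver. The 4 fasted KO arrays stood above the 4 fed KO arrays, while the WT groups overlapped. Its log2 difference was 0.30 in KO (limma adjusted p = 0.158) and 0.29 in WT liver (limma adjusted p = 0.193), and neither passed.

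The diacylglycerol acyltransferases of the last step moved in opposite directions in KO liver. Dgat1 read 8.72, 8.88, 8.66 and 8.89 on fasted KO arrays, against 8.50, 8.33, 8.20 and 8.05 on fed KO arrays. On fasted WT arrays it read 8.71, 8.82, 8.92 and 9.22, against 8.45, 8.02, 8.37 and 8.36 on fed WT arrays. All fasted arrays lay above all fed arrays, with the top value on fasted WT 4. Dgat1 rose 1.44-fold in fasted KO (log2 difference 0.52, SE 0.12, limma adjusted p = 0.0115) and 1.54-fold in fasted WT liver (0.62, SE 0.12, limma adjusted p = 0.00528). Without fasted WT 4 the WT difference of Dgat1 was 0.52 (limma adjusted p = 0.0195).

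Dgat2, which shares the reaction of Dgat1 but belongs to another protein family, read 11.52, 11.71, 11.83 and 11.77 on fasted KO arrays, against 12.20, 12.17, 12.30 and 12.03 on fed KO arrays. On fasted WT arrays it read 11.72, 11.82, 11.87 and 11.92, against 12.10, 12.02, 12.35 and 12.07 on fed WT arrays. All fasted arrays lay under all fed arrays. Dgat2 fell 1.39-fold in fasted KO liver (log2 difference -0.47, SE 0.09, limma adjusted p = 0.00306). In WT liver the difference of -0.31 (95% interval -0.50 to -0.11) missed the threshold at a limma adjusted p of 0.0502. It passed without fasted KO 1 (limma adjusted p = 0.0404), without fed WT 2 (0.0474) or without fed KO 4 (0.0431), and reached 0.147 with another array left out.

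Mogat1, of the monoacylglycerol branch, lay under the highest array median in every group, where arrays give little signal over background. It read 4.71, 4.09, 5.20 and 4.78 on fasted KO arrays, against 3.995, 4.24, 3.73 and 3.51 on fed KO arrays. On fasted WT arrays it read 4.12, 4.22, 3.91 and 4.08, against 4.65, 3.20, 3.77 and 3.25 on fed WT arrays. Fasted KO 2 lay within the fed KO range, and fed WT 1 stood above the fasted WT arrays. The fasting difference was 0.83 in KO (95% interval 0.25 to 1.4, limma adjusted p = 0.0672) and 0.37 in WT liver (-0.21 to 0.94, limma adjusted p = 0.486). The KO difference passed without fasted KO 2 (1.03, limma adjusted p = 0.0274) or without fed WT 1 (0.83, limma adjusted p = 0.016). Without fed WT 1 the WT difference was 0.68, and it did not pass.

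**Figure D2:**
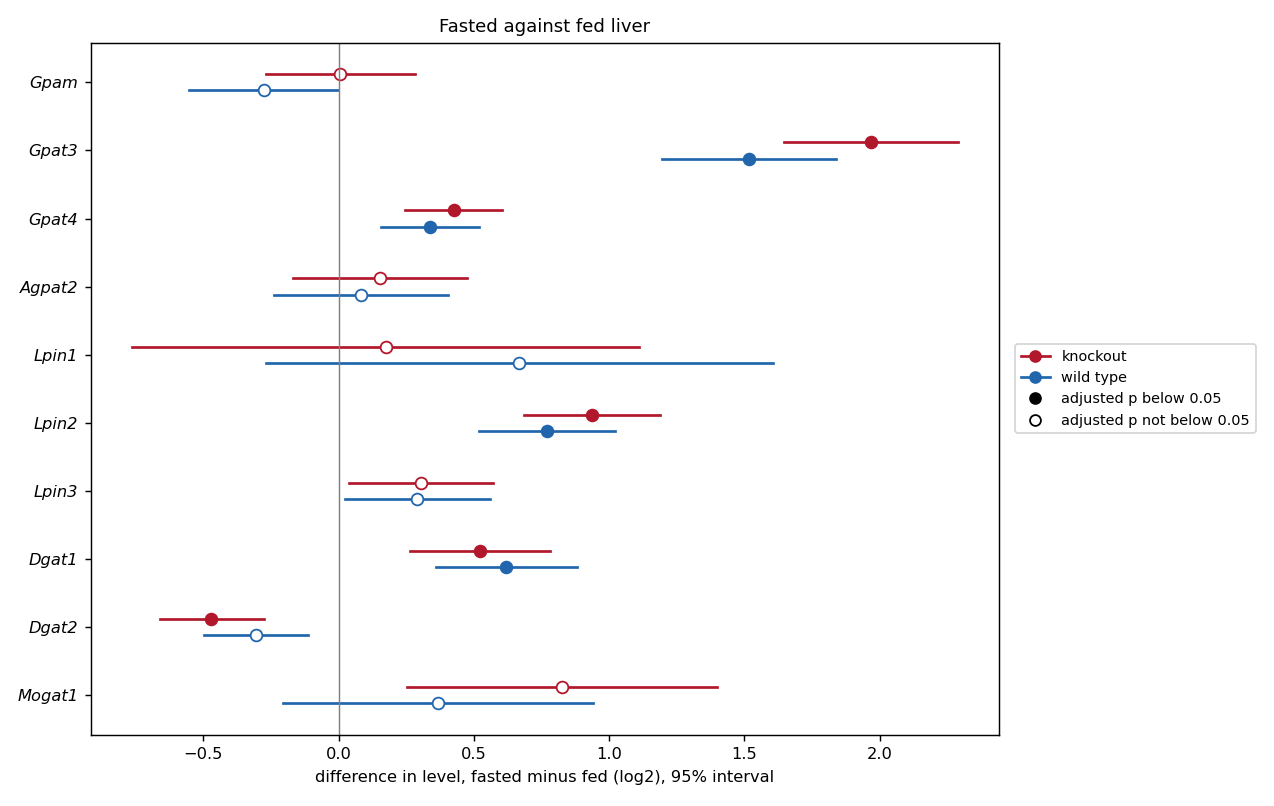
Fasted minus fed difference in level (horizontal axis, log2) of the 10 genes, with 95% intervals from limma, for KO (red, upper) and WT liver (blue, lower). Filled points passed an adjusted p of 0.05. Gpat3 stands farthest right at 1.97 in KO and 1.52 in WT liver, and Dgat2 lies left of zero at -0.47 and -0.31.

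The promoter windows of Gpat3 and Lpin2 are shown because these genes gave the largest rises of the 10 and moved together in both genotypes. RefSeq sequence (GRCm38.p6) from 250 bases before to 50 after a start was found for 7 of the 10 genes, with 11 starts in all. Gpat4, Dgat1 and Dgat2 are not in that table. Capitals mark the E-box CACGTG, and Lpin2 has 3 listed starts of which the first is printed.
Gpat3 promoter, chr5:100845979-100846278, plus strand: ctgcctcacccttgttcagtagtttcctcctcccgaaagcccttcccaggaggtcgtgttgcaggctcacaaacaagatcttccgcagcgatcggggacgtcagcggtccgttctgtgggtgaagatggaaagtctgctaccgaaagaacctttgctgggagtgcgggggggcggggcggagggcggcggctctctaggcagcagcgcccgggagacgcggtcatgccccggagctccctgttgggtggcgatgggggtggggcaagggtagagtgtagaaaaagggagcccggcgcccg
Lpin2 promoter, chr17:71183282-71183581, plus strand: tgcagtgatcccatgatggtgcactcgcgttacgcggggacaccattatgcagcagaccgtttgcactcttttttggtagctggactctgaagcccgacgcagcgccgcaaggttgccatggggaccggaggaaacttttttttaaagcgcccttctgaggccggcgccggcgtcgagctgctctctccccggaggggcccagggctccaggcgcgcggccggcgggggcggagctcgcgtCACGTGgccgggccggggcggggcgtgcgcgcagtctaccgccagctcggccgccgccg
The windows were searched on both strands for the DR1 repeat AGGTCANAGGTCA (a form bound by PPARα), the single repeat AGGTCA (contained in DR1) and the E-box. DR1 was in none of the 11 windows and in 0.0396% of all 32851 windows. The single repeat was in 1 window each of Gpam and Lpin1 and in 16.3% of all windows. The E-box was in 1 window each of Lpin2, where it begins at -9 from the start, and Lpin3, and in 7.15% of all windows. These are matches of letters in short windows, not binding sites.

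Agpat3 rose in both genotypes among other genes of the pathway. Of 13 measured genes for glycerol 3-phosphate supply, further acyltransferases and lipin regulators, 2 rose and none fell in fasted KO liver, and 1 rose and none fell in fasted WT liver, beside the 4.53% and 3.34% of all genes that rose. The median log2 difference of this list was 0.04 in KO and 0.09 in WT liver. Agpat3, an acyltransferase of the second step, rose 1.36-fold in fasted KO (limma adjusted p = 0.00525) and 1.42-fold in fasted WT liver (limma adjusted p = 0.00326). Lclat1, which acylates lysophospholipids, rose 1.38-fold in fasted KO liver (limma adjusted p = 0.00101) and differed by 0.24 on the log2 scale in WT liver (limma adjusted p = 0.0791). Gpd1, which makes glycerol 3-phosphate, differed by 0.48 in KO liver (limma adjusted p = 0.054) and 0.26 in WT liver (limma adjusted p = 0.354).

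In the phospholipid branch, which draws on the same phosphatidic acid and diacylglycerol, 3 of 20 genes rose and none fell in fasted KO liver. In fasted WT liver 1 of 20 rose and none fell. Of all genes, 4.53% rose in KO and 3.34% in WT liver. The median was 0.14 in KO and 0.08 in WT liver. The choline kinase gene Chkb rose at least 2.27-fold in KO liver (limma adjusted p = 4.94e-04). It differed by 0.57 on the log2 scale in WT liver (limma adjusted p = 0.0659). The phosphatidylserine decarboxylase gene Pisd rose 1.36-fold in KO liver (limma adjusted p = 0.009). In WT liver Pisd differed by 0.14 on the log2 scale (limma adjusted p = 0.464). The lipid phosphatase gene Plpp2 rose 1.38-fold in KO liver (limma adjusted p = 0.0328). That call was lost without any 1 of fasted KO 1, 2 and 4 and fed KO 3 and 4 (0.0602 to 0.101). In WT liver Plpp2 differed by 0.22 (limma adjusted p = 0.355). The cardiolipin synthase gene Crls1 rose 1.35-fold in WT liver (limma adjusted p = 0.0201). That call ended when fasted WT 2, fasted WT 4, fed WT 2 or fed WT 4 was left out (0.0523 to 0.0677). In KO liver Crls1 differed by 0.24 (limma adjusted p = 0.192).

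Srebf1 and Insig1 gave the largest falls among regulators of lipid synthesis. Of 15 measured regulator genes 2 rose and 5 fell in fasted KO liver, and 5 rose and 4 fell in fasted WT liver, with medians of -0.13 and -0.06. Of all genes, 4.53% rose and 4.89% fell in KO liver, and 3.34% rose and 4.27% fell in WT liver. Srebf1 fell 4.18-fold in KO (limma adjusted p = 5.63e-06) and 5.17-fold in WT liver (limma adjusted p = 3.79e-06). Its arrays ranged from 7.37 to 7.74 in fasted KO against 9.01 to 10.06 in fed KO, and from 6.85 to 7.18 in fasted WT against 9.20 to 9.92 in fed WT liver. Insig1, a retention factor of that pathway, fell 4.34-fold in KO and 3.10-fold in WT liver. Insig2 rose 1.76-fold in KO and 2.17-fold in WT liver. The coactivator gene Ppargc1a differed by 0.84 on the log2 scale in KO liver (limma adjusted p = 0.0594) and rose 2.78-fold in WT liver (limma adjusted p = 0.00283).

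Mlxipl, the carbohydrate response factor, fell 1.48-fold in KO liver (limma adjusted p = 0.0283) and 2.02-fold in WT liver (limma adjusted p = 8.16e-04). Its KO call was lost without any 1 of fasted KO 1 and 4 and fed KO 1, 2 and 3 (0.058 to 0.0961). Nr3c1, the glucocorticoid receptor gene, fell 1.30-fold in KO and 1.33-fold in WT liver. Srebf2 fell 1.55-fold in KO liver and differed by -0.35 on the log2 scale in WT liver (limma adjusted p = 0.104). Foxo1 rose 1.32-fold in KO and 1.44-fold in WT liver, and its KO call was lost without any 1 of fasted KO 1, 2 and 4 and fed KO 3 and 4 (limma adjusted p of 0.0611 to 0.102). Creb3l3 rose 1.32-fold in WT liver, a call lost without fed WT 4 (limma adjusted p = 0.051). In KO liver it differed by 0.31 on the log2 scale (limma adjusted p = 0.0509). Hnf4a rose 1.18-fold in WT liver, a call lost without any 1 of 13 arrays (limma adjusted p of 0.052 to 0.123). In KO liver Hnf4a differed by 0.04 (limma adjusted p = 0.781). Ppara differed by 0.24 in KO and 0.07 in WT liver, and Pparg by -0.27 and -0.12, none of which passed.

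**Figure D3:**
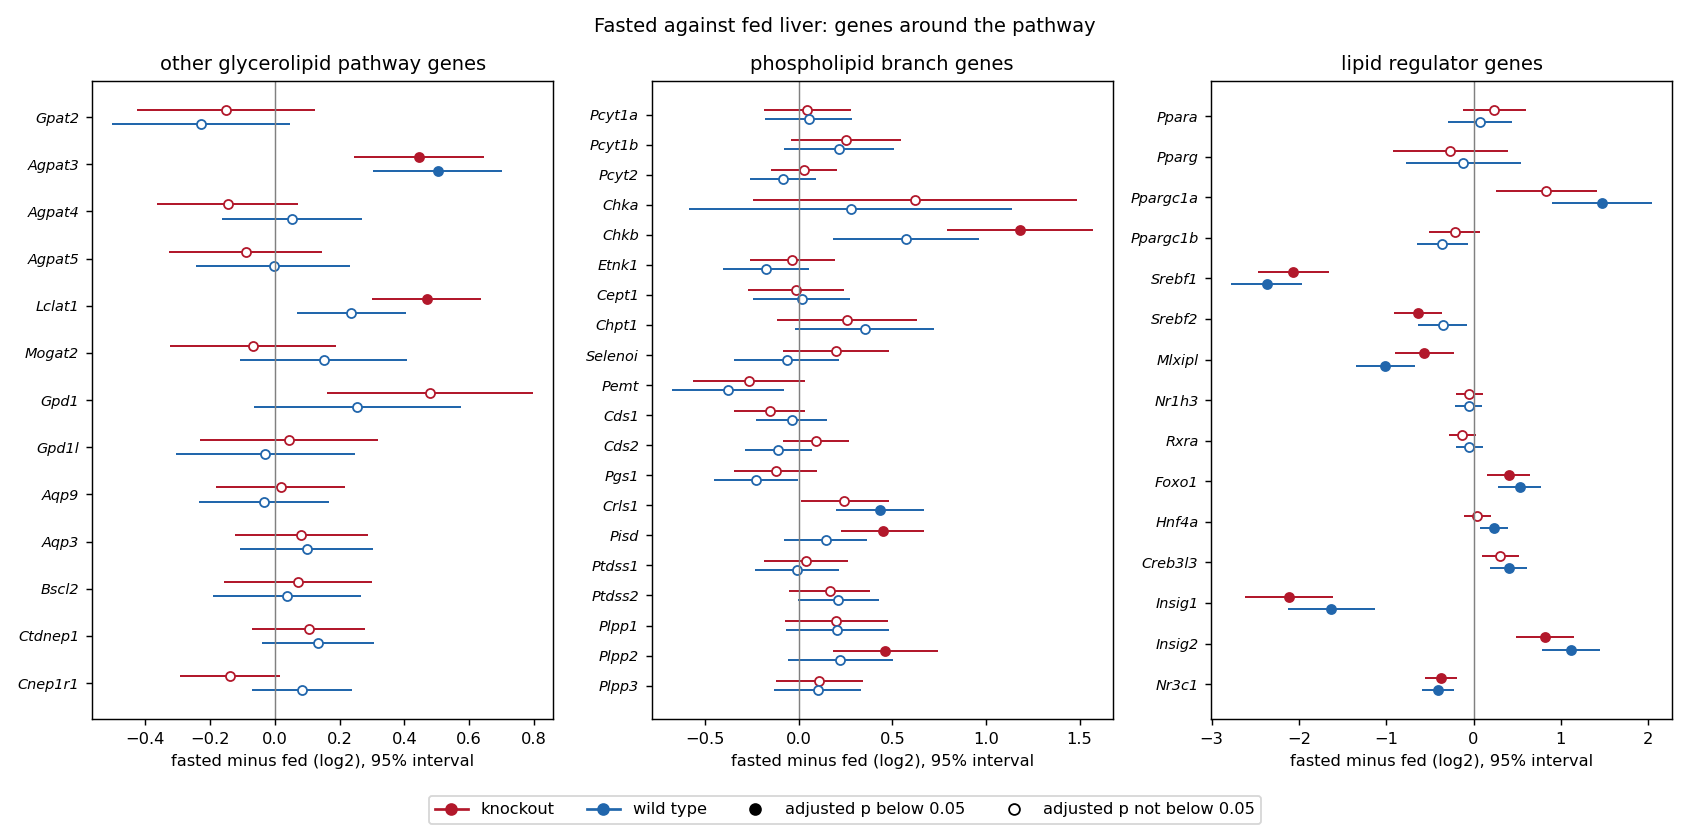
Fasted minus fed difference (horizontal axes, log2, a scale of its own in each panel) with 95% limma intervals for genes around the pathway, in KO (red, upper) and WT liver (blue, lower). Filled points passed an adjusted p of 0.05. In the right panel Srebf1 lies at -2.06 in KO and -2.37 in WT liver, while most genes of the left and middle panels have open points.

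Vanin-1 loss was then set against wild type within each feeding state, as the design allows. None of the 10 genes passed in fasted KO against fasted WT liver, where 0.0159% of all genes passed by limma and 0.0106% passed as higher. At an unadjusted limma p under 0.05 there were 3 of 10, against 1033 of 18820 genes. Gpat3 was 1.45-fold higher in fasted KO liver, at 7.91 ± 0.10 against 7.37 ± 0.06 in fasted WT liver (SD, n = 4), with a limma adjusted p of 0.842. The log2 difference was 0.54 (95% interval 0.21 to 0.86), and it lay between 0.49 and 0.57 with any single array left out. Within plate columns 5 and 7 it was 0.60 and 0.48, with a sign fixed by the separation of the arrays given next. Every fasted KO array was above every fasted WT array for Gpat3, a separation found for 1 of the 10 genes and for 3.15% of all genes. Mogat1 differed by 0.61 (95% interval 0.04 to 1.19, limma adjusted p = 0.885), at 4.70 ± 0.46 in fasted KO and 4.08 ± 0.13 in fasted WT liver, both near background. Gpat4 differed by 0.20 (0.02 to 0.38, limma adjusted p = 0.88).

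The remaining differences in fasted liver ran from -0.13 for Dgat1 and Dgat2 to 0.25 for Gpam. The interval of Dgat2 ran from -0.32 to 0.07, that of Lpin2 from -0.03 to 0.48 and that of Lpin1 from -0.92 to 0.96. In fed KO against fed WT liver none of the 10 passed, where 0.00531% of all genes passed by limma, and 0 of 10 had an unadjusted p under 0.05, against 1084 of all genes. Gpat3 lay at 5.94 ± 0.15 in fed KO and 5.85 ± 0.44 in fed WT liver (difference 0.09, 95% interval -0.24 to 0.41, limma adjusted p = 0.954), and by plate column it was -0.13 and 0.30. The fed difference of Lpin1 was 0.51 with an interval of -0.43 to 1.45, and the other 9 lay between -0.03 and 0.21. For none of the 10 genes were fed KO and fed WT arrays separated, against 3.12% of all genes.

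The difference of the fasting responses, KO minus WT, was tested as an interaction. None of the 10 genes passed by limma, nor did any of 18820 genes (0%), and at an unadjusted p under 0.05 there were 0 of 10 and 924 of all. For Gpat3 the response was larger in KO liver by 0.45 on the log2 scale (95% interval -0.003 to 0.91, limma adjusted p = 0.948). For Dgat2 the difference was -0.16 (-0.44 to 0.11, limma adjusted p = 0.948) and for Lpin2 0.17 (-0.19 to 0.52). That Dgat2 passed on fasting in KO and not in WT liver therefore does not show that the genotypes differ. Averaged over both feeding states, none of the 10 passed between KO and WT liver by limma, where 0.00531% of all genes passed. At an unadjusted limma p under 0.05 there were 3 of 10 (Gpat3 0.31, Gpat4 0.15 and Lpin3 0.22 on the log2 scale), against 1161 of all genes.

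**Figure D4:**
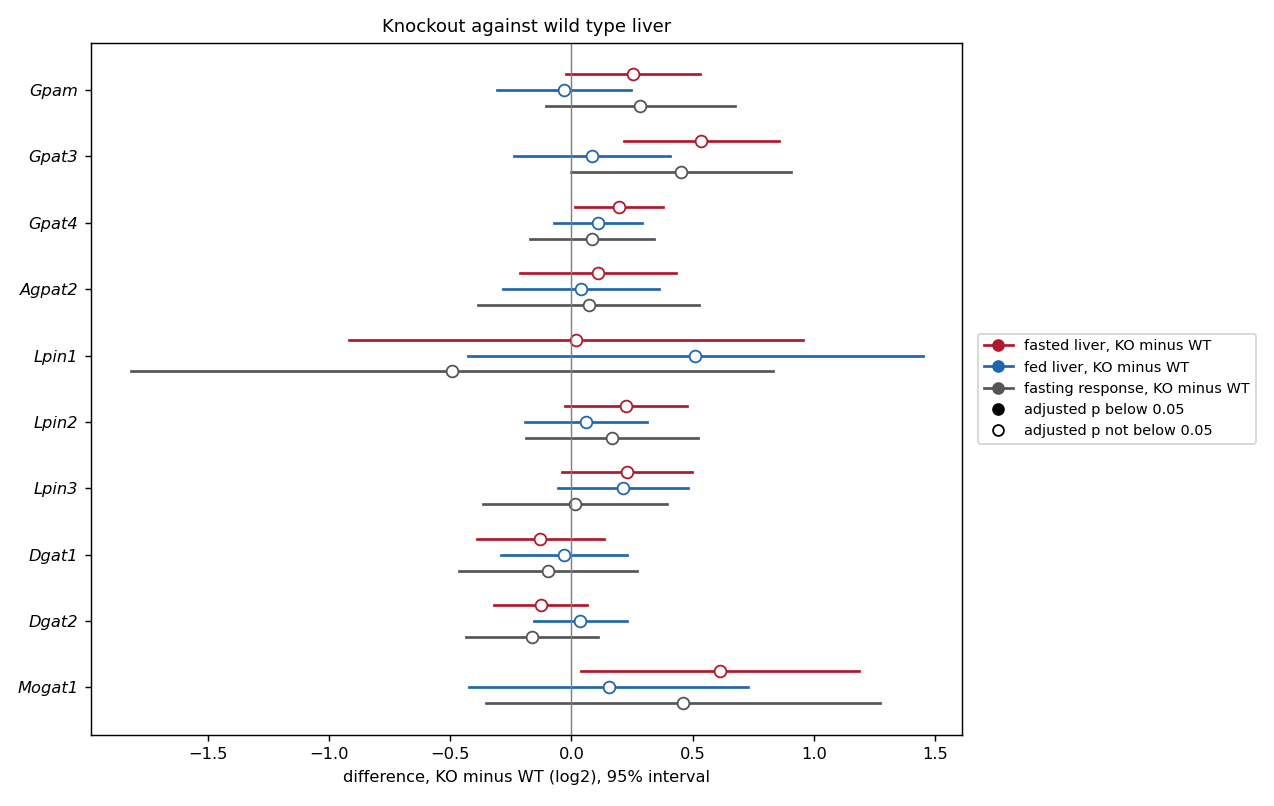
KO minus WT difference (horizontal axis, log2) of the 10 genes in fasted liver (red), in fed liver (blue) and between the fasting responses (grey), with 95% limma intervals. All points are open, since none passed an adjusted p of 0.05. The red interval of Gpat3, 0.21 to 0.86, lies right of zero, and the intervals of Lpin1 are the widest.

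Group means of Gpat3, Gpat4, Lpin2, Agpat2, Lpin1, Lpin3 and Mogat1 ran fasted KO, fasted WT, fed KO, fed WT from high to low. Many of these steps lay within the spread of the arrays. Neighbouring groups were separated without overlap between fasted WT and fed KO for Gpat3, Gpat4 and Lpin2, and between fasted KO and fasted WT for Gpat3. Dgat1 lay at 8.79 ± 0.11 in fasted KO and 8.92 ± 0.22 in fasted WT liver, whose arrays overlapped, and fasted KO and fed WT arrays did not. Dgat2 ran the other way, at 11.71 ± 0.14 in fasted KO and 11.83 ± 0.09 in fasted WT liver, against 12.18 ± 0.11 in fed KO and 12.14 ± 0.15 in fed WT liver (SD, n = 4 each). Neighbouring groups of Gpam, Agpat2, Lpin1, Lpin3 and Mogat1 overlapped at every step of the order.

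Among all other genes, those most like the 3 members with the widest range of group means were found by Pearson correlation over the 16 arrays, a description in which all points share the fasting difference. Gpat3 was followed most closely by Crat (r = 0.97), which encodes carnitine acetyltransferase, by Slc4a4 (0.968) and by Oplah (0.968). Lpin2 was followed by Etfdh (0.986), which passes electrons from fatty acid oxidation to ubiquinone, by Ephx2 (0.979) and by Slc25a20 (0.978), the mitochondrial acylcarnitine carrier. Mogat1 was followed by Gpd1 (0.907), Tenm3 (0.891) and Entpd5 (0.887).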

How the data were processed

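Per the submitters' processing notes the authors used RMA, and the deposited table holds its log2 intensities (RMA version not given in the sources used). Of 35556 probe sets, 21218 had a single gene symbol in the platform's annotation table, and a gene with several was read from its brightest probe set on average. This gave 18820 genes with no filter on dim ones. A mean per group was fitted to all 16 arrays with limma 3.58.1 in R 4.3.3 (12 residual and 4.66 prior degrees of freedom). Tests were two-sided, adjusted by Benjamini-Hochberg over all genes and called below 0.05. A fold is given as "at least" where the lower group mean lay under the highest array median (5.83). On simulated arrays of 18820 genes for fasted against fed WT liver, 50 genes were changed at each of several folds. Of these, 18.0% of genes changed 1.25-fold, 70.0% of those changed 1.5-fold and 94.0% of those changed 2-fold were recovered. The simulation made 146 calls, against 1432 on fasting in WT liver and 3 between fasted KO and fasted WT liver. The adjusted p depends on how many genes change, so these shares do not carry over to the comparisons in the data. The number of arrays limits the precision.

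The members and gene lists were chosen with earlier results of these data known. All 10 members are named, as are genes of the 3 pathway lists called in a fasting comparison, as are the 3 genes most like each of the 3 members with the widest range, and Gpd1, Ppara and Pparg were added after their values were seen. Alternatives covered scaling, filters, probe sets, the variance prior, array weights, blocks for title number and plate position, and leaving out arrays. Each plate row held arrays of a single group, so the row block cannot separate row from group.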

Additional observations from a re-analysis of the deposited data

Results flagged for a closer look

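Among 40 sets of 4 arrays (10 genes in 4 groups), 2 held an array far from the other 3, and chance alone flags about 1 in 20 sets. Gpam read 10.14 on fasted WT 4, against 10.42 to 10.48 on the other fasted WT arrays. Lpin3 read 6.27 on fasted KO 4, against 5.87 to 5.89 on the other fasted KO arrays. None of the 10 genes had a fasting response that differed between genotypes by the interaction test.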

How the results depend on the processing

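Mogat1 in all groups and Lpin3 in 3 of 4 groups had means under the highest array median, which limits what their differences show. The genes called on fasting numbered 4 to 6 in KO and 3 to 5 in WT liver over 29 alternatives, and none was called between genotypes under any of the 28 or 29 run. Over all tested genes the fasting calls numbered 879 to 2326 in KO and 576 to 1608 in WT liver. No called value changed sign, and 6 ended and 14 began a call among 1714 values. Leaving out arrays could not turn the sign of a called value, since the fasted and fed arrays of each did not overlap. With the title number as a replicate block, 5 of the 10 genes passed in fasted KO and 5 in fasted WT liver, Dgat2 being the addition in WT liver (limma adjusted p = 0.0382). Of all 18820 genes, 1658 and 1324 passed with that block. The numbers did not pair the arrays: deviations of same-numbered arrays from group means correlated at -0.22 to 0.209, and 3 of 16 arrays correlated best with their own number. Mogat1 was not tested when genes under the 30th percentile were left out.

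Over all genes, 1772 passed on fasting in KO liver, against 964 without 3 arrays whose names end in 2 and 879 at an adjusted p of 0.01. In WT liver 1432 passed, against 829 with only the 2 groups fitted, 576 at 0.01 and 880 without fasted WT 4. Counts between genotypes stayed at 5 or fewer.

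Small uncalled differences changed sign, and the cause was not tested. For fasted KO against fasted WT, Lpin1 gave -0.011 with arrays centred on their medians, -7.51e-05 after quantile normalisation and -0.254 to 0.487 with 1 array left out. For fasted KO against fed KO, Gpam gave -0.012 with array weights, -0.126 without the 3 arrays, -0.097 without fasted WT 4 and fed KO 4, and -0.097 to 0.112 with 1 left out. Lpin1 gave -0.086 without those 2 and -0.086 to 0.386. For fasted WT against fed WT, Agpat2 gave -0.037 to 0.175.

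For fed KO against fed WT, Gpam gave 0.017 with weights, 0.105 without the 3, 0.072 without the 2, and -0.137 to 0.072 with 1 left out. Dgat1 gave 0.043 without the 2 and -0.125 to 0.043. With 1 left out, Gpat3 gave -0.062 to 0.27, Agpat2 -0.057 to 0.152, Lpin2 -0.056 to 0.154, Dgat2 -0.00496 to 0.109 and Mogat1 -0.021 to 0.465. For the difference of fasting responses, Lpin3 gave -0.033 with centring, -0.049 after quantile normalisation, -0.033 without the 3 and -0.082 to 0.129. Agpat2 gave -0.068 without the 3, -0.067 without the 2 and -0.042 to 0.191, and Dgat1 gave -0.171 to 0.00405. Averaged over feeding states, Dgat1 gave 0.00847 without the 2.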

Other observations

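The spread within groups differed among the 10 genes. Gpat4 and Dgat2 had pooled SDs of 0.11 and 0.12 on the log2 scale, and 79.1% and 70.0% of all genes had larger ones. Mogat1 had a pooled SD of 0.44, exceeded by 1.79% of genes, and Lpin1 one of 0.73. After the group means were taken off, a step chosen after the spread of Lpin1 was seen, the genes that followed Lpin1 most closely over the 16 arrays were Slc37a4 (r = 0.91), which encodes the glucose-6-phosphate transporter, Gcn1 (0.909), Timm10 (0.907) and Tmc7 (0.9). Id2 (-0.895), Aif1 (-0.876), which macrophages express, Pla2r1 (-0.853) and Zeb2 (-0.847) ran most strongly the other way, and the part of cell composition was not tested. Among the 10 genes themselves, the highest such values were 0.793 between Lpin2 and Mogat1 and 0.657 between Lpin1 and Dgat2. These values describe 16 arrays that share their group structure, and no test was made.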
